A study of Caenorhabditis elegans with 12 samples.

Results

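The math and bath genes of the nematode Caenorhabditis elegans were examined in whole worms that spliced a fluorescent reporter in different ways. The members were all genes of the deposited table whose name is math or bath followed by a number, 93 of 21982 genes, of which 49 are math and 44 are bath genes. Membership is by name, and the domains of the proteins were not examined here. Both groups of worms were strain KH2235, with a ret-1 minigene as a splicing reporter, and both were collected on day 6. The Green group held worms with mostly GFP fluorescence and the Red group worms with mostly mCherry fluorescence, with 6 libraries each, and each of the 6 batches named in the labels held 1 Green and 1 Red library. The labels give no further allele or agent for either group. The promoter of the reporter and the number of worms in a library are not given here, and separate cultures are not stated for the libraries, so a p-value reflects only the spread among these libraries. A library held 30185155 to 87141961 reads. Red replicate 6 stood apart, as the lowest of the 12 libraries for 28 of the 68 members that could be tested, and results that rest on it are given with and without it. RNA came from the whole body, so fewer cells of a type and less RNA per cell cannot be told apart.

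MATH domain proteins bind other proteins through a meprin and TRAF homology domain. In the MATH-BTB proteins this domain is joined to a BTB domain that binds the cullin CUL-3, so that the MATH domain holds a substrate while the cullin complex attaches ubiquitin to it. The best studied worm protein of this kind is MEL-26, no member by its name, which delivers the katanin subunit MEI-1 for degradation after meiosis in the embryo, and the mammalian relative is SPOP. The bath genes take their name from the BTB and MATH pair, and the math genes from the MATH domain. An exception in function is math-33, whose product is a ubiquitin-specific protease related to mammalian USP7 that stabilises the transcription factor DAF-16. For most other members no substrate is known with certainty, and none is named here.

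The annotation of the same genome build (WBcel235, Ensembl release 115) placed 79 of the 93 members on chromosome II, with 5 on I, 4 on III, 3 on V and 1 each on IV and X. It lists 74 as protein coding and 19 as pseudogenes. The annotated bath proteins run from 242 residues (bath-24) to 706 (bath-47) with a median of 309, and the math proteins from 105 (math-31) to 1138 (math-33) with a median of 383. Members within 100 kb of each other form 5 clusters, and 17 members stand alone. The first of the 2 main clusters spans 449 kb of chromosome II (1706709 to 2155220) and holds 43 math and 14 bath genes. The other spans 37.7 kb of the same chromosome (3343731 to 3381403) and holds 8 bath genes.

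Expression was concentrated in a few members. A total of 68 members, 43 bath and 25 math genes, averaged at least 10 normalized counts over the 12 libraries and were tested. A normalized count is a gene's count divided by the size factor of its library. math-33 alone held 25.9% of the summed normalized counts of all 93 members, and math-33, bath-42, bath-40, bath-41 and bath-43 together held 70.0%. Per kilobase of annotated exon the order was bath-42 with 8366 normalized counts per kb, bath-40 with 5847, bath-41 with 5395, math-33 with 5312, bath-43 with 4254 and bath-44 with 3175. The neighbours bath-40 and bath-41, and bath-41 and math-33, differed by less than the SD over the 12 libraries, and the other steps in this order were larger than it. All 6 stand outside the clusters, and the next, bath-30 with 2308 and bath-28 with 1276, belong to the 37.7-kb cluster.

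Calls were made in both directions, and few members differed by 2-fold or more. Among all 14618 tested genes 39.1% passed an adjusted p of 0.05 (limma on log2(normalized count + 1), Benjamini-Hochberg over all genes), 19% higher and 20.1% lower in Green. Of the 68 members 20 passed, 11 higher (16.2%) and 9 lower (13.2%) in Green, with a median log2 fold of 0.098 against 0.037 over all tested genes. The bath genes had 10 higher and 5 lower calls of 43 and a median log2 fold of 0.14. The math genes had 1 higher and 4 lower calls of 25 and a median of 0.0047, but its sign depended on the setting, at -0.13 in edgeR, -0.099 in DESeq2, -0.27 without Red replicate 6, 0.18 under quantile normalization and 0.13 with each library centred on its median gene. For the bath genes the median stayed above 0 in every alternative, between 0.092 and 0.28. Centring in this way put the median over all tested genes at 0.16, where it was 0.037, and the members then had 18 higher calls (26.5%) and 8 lower (11.8%), against 28.5% and 16% of all tested genes. Under quantile normalization they had 11 higher and 5 lower, against 16.1% of all tested genes in each direction. The higher count was 6 without Green replicate 3, 7 without Red replicate 2 or without Red replicate 4, and 17 without Red replicate 3, where 13.5%, 13.8%, 14.4% and 21.2% of all tested genes were higher in that order of fits. The ranges of the 2 groups did not overlap in 6 members, with Green above Red in math-45, bath-29 and bath-41 and Red above Green in bath-10, bath-9 and bath-38, where 7.06% of all tested genes had Green above and 9.71% had Red above.

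**Figure D1:**
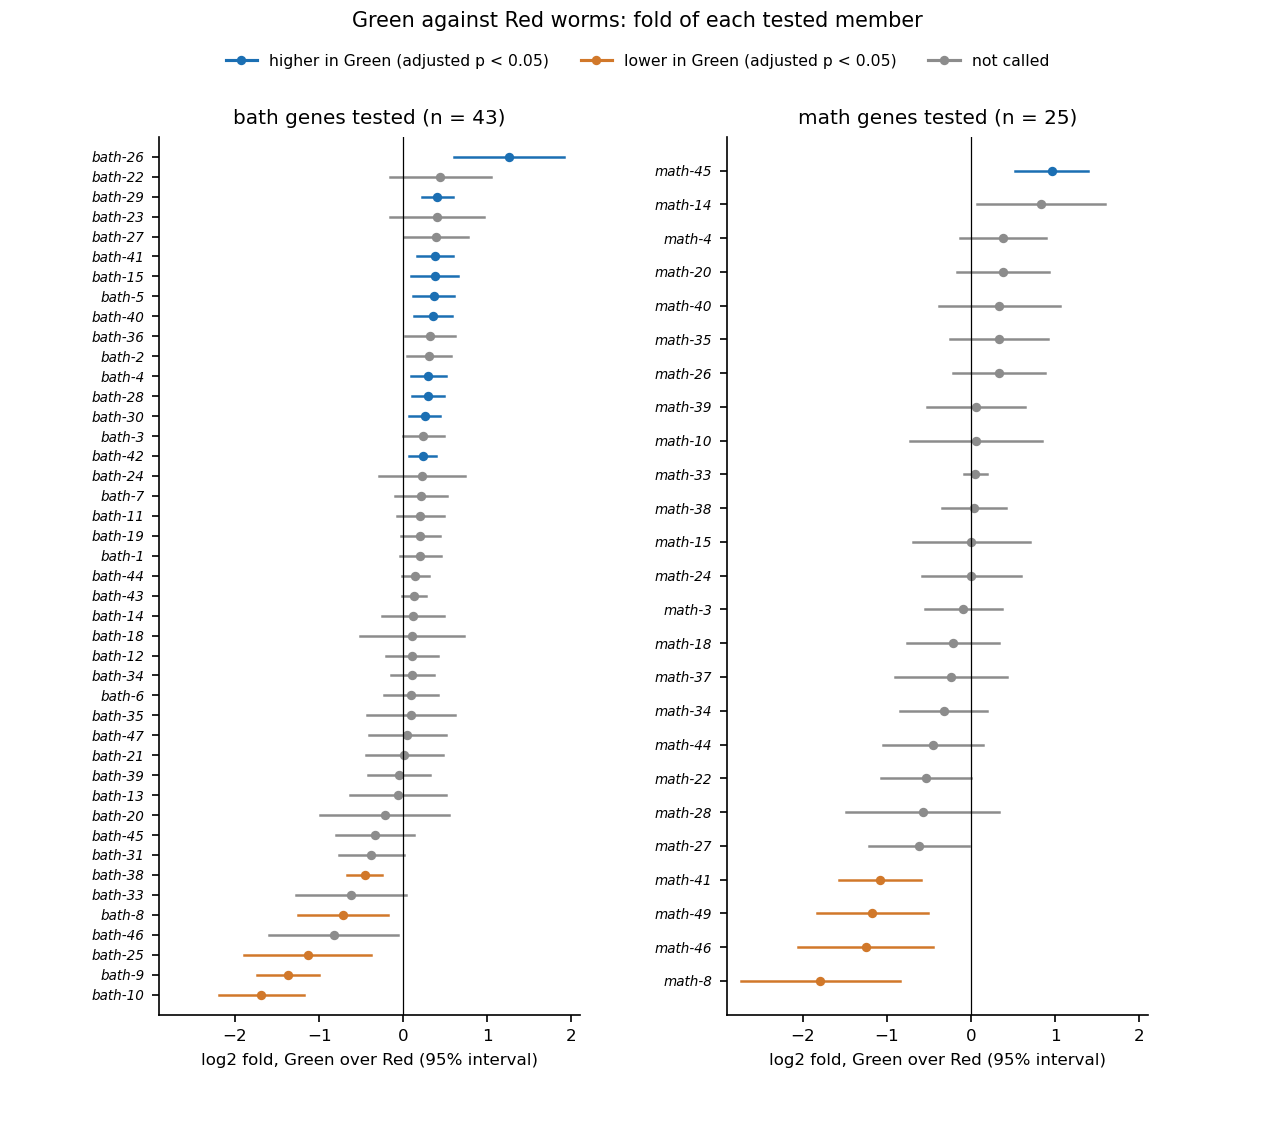
Log2 fold of Green over Red for the 43 bath and 25 math genes tested, with 95% intervals (limma, 6 libraries each). Higher calls (blue) number 11 and reach beyond 2-fold only for bath-26, and lower calls (orange) number 9 and reach a log2 fold of -1.69 in bath-10, or -1.79 in math-8, which met the filter on low values only through Red.

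Higher calls lay mostly among abundant members and lower calls among scarce ones. Of the 13 members that averaged 1000 normalized counts or more, 11 of them bath genes, 8 bath genes were higher and 1 was lower in Green. Of all tested genes in that range 32.7% were higher and 7.85% lower. Among the 28 members between 100 and 1000, 1 was higher and 3 were lower, against 14.8% higher and 28.2% lower over all genes, and among the 27 members between 10 and 100, 2 were higher and 5 lower, against 5.76% and 28.2%. The whole table thus had the same lean. The higher calls had log2 folds from 0.23 to 1.25, with 1 of 11 at 2-fold or more. Of the 9 lower calls 3 (math-8, math-46 and bath-25) averaged under 10 in Green and met the filter only through Red, so a large difference was built into their selection. The other 6 had log2 folds from -1.69 to -0.46, with 4 of them at 2-fold or more.

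**Figure D2:**
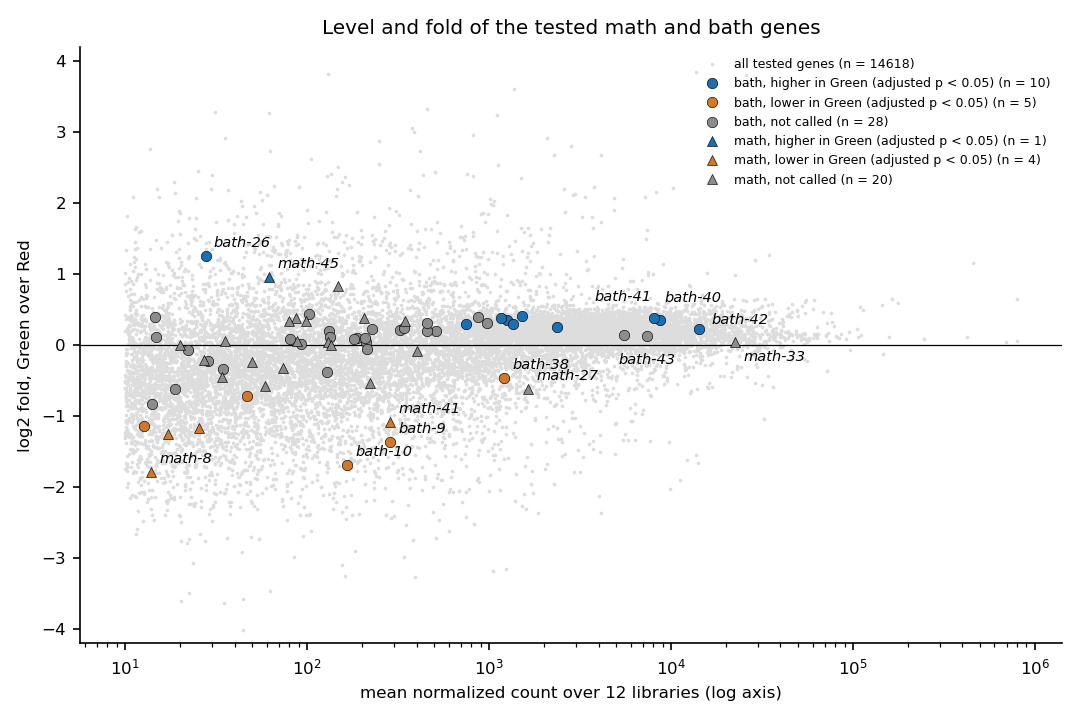
Log2 fold of Green over Red against the mean normalized count (log axis) for the 68 tested members, drawn over all 14618 tested genes in pale grey. The higher calls sit mainly above 1000 normalized counts at folds under 0.5, and the lower calls sit mainly below 300.

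The strongest members, those standing outside the clusters, were for the most part slightly higher in Green or not called. bath-42 (III, 8161455 to 8163383), the member with the highest level per kilobase, had 14654 to 16642 normalized counts in Green (median 15276) and 11403 to 14700.3 in Red (median 13315). The lowest Green value lay just under the highest Red value, and Green was higher in 6 of 6 batches. Its log2 fold of 0.23 (standard error 0.075, limma adjusted p = 0.0257) passed, and the call was lost under quantile normalization (0.06, adjusted p = 0.527) and without Green replicate 3, Red replicate 2 or Red replicate 4, where the adjusted p reached at most 0.0642.

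bath-40 (I, 14647782 to 14651288) had 9176 to 10879.6 normalized counts in Green (median 9505) and 6321 to 9670.2 in Red (median 7588). The groups overlapped only through Red replicate 6, the highest Red library, and Green was higher in 5 of 6 batches. It had a log2 fold of 0.35 (standard error 0.10, limma adjusted p = 0.0156), which was 0.42 without Red replicate 6. bath-41 (III, 6720415 to 6722258) had 8548 to 10102 normalized counts in Green (median 8801) and 5839 to 8416 in Red (median 7064), so that all Green libraries lay above all Red libraries. It had a log2 fold of 0.38 (standard error 0.10, limma adjusted p = 0.00919), and it missed the threshold only under quantile normalization (0.22, adjusted p = 0.0832). bath-15 (III, 7774677 to 7776033), the fourth member on chromosome III beside bath-41, bath-42 and bath-43, had 1164 to 1454 normalized counts in Green (median 1303) and 702 to 1298 in Red (median 1048). Its groups overlapped, and the log2 fold of 0.38 (standard error 0.13, limma adjusted p = 0.0345) was lost in 10 of the alternatives, edgeR among them (log2 fold 0.31, adjusted p = 0.0721).

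math-33 (V, 11113907 to 11118824), the USP7-like protease gene, was not called. It had 21846 to 23843 normalized counts in Green (median 22766) and 20185 to 23782 in Red (median 22083), and the groups overlapped over most of their range. The log2 fold of 0.052 (standard error 0.063, limma adjusted p = 0.532) had a 95% interval from -0.084 to 0.19, and Green was higher in 3 of 6 batches. Under quantile normalization its fold was -0.12. bath-43 (III, 10090862 to 10098081), which the annotation names spop-1, had 7151 to 8359 normalized counts in Green (median 7613) and 6482 to 7495 in Red (median 7019). Green was higher in 6 of 6 batches by 0.079 to 0.19 on the log2 scale. The log2 fold of 0.13 (standard error 0.065, limma adjusted p = 0.125) did not pass, with an interval from -0.0096 to 0.27. It turned to -0.043 under quantile normalization, and with median centring it was 0.26 and passed (limma adjusted p = 0.0387). bath-44 on chromosome II averaged 5796 ± 351 in Green, against 5252 ± 465 in Red (SD, n = 6 each) and was not called (limma adjusted p = 0.127). It did pass with median centring and without Red replicate 3.

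bath-38 was the only member with a mean above 1000 normalized counts that was called lower in Green. Its locus is at II, 10042780 to 10045270. It had 945 to 1079 normalized counts in Green (median 1015) and 1099 to 1647 in Red (median 1423). Every Green library lay below every Red library, and the Green values were close together. The log2 fold of -0.46 (standard error 0.096, limma adjusted p = 0.00231) was -0.53 without Red replicate 6, the lowest Red library, and the call held in every alternative.

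**Figure D3:**
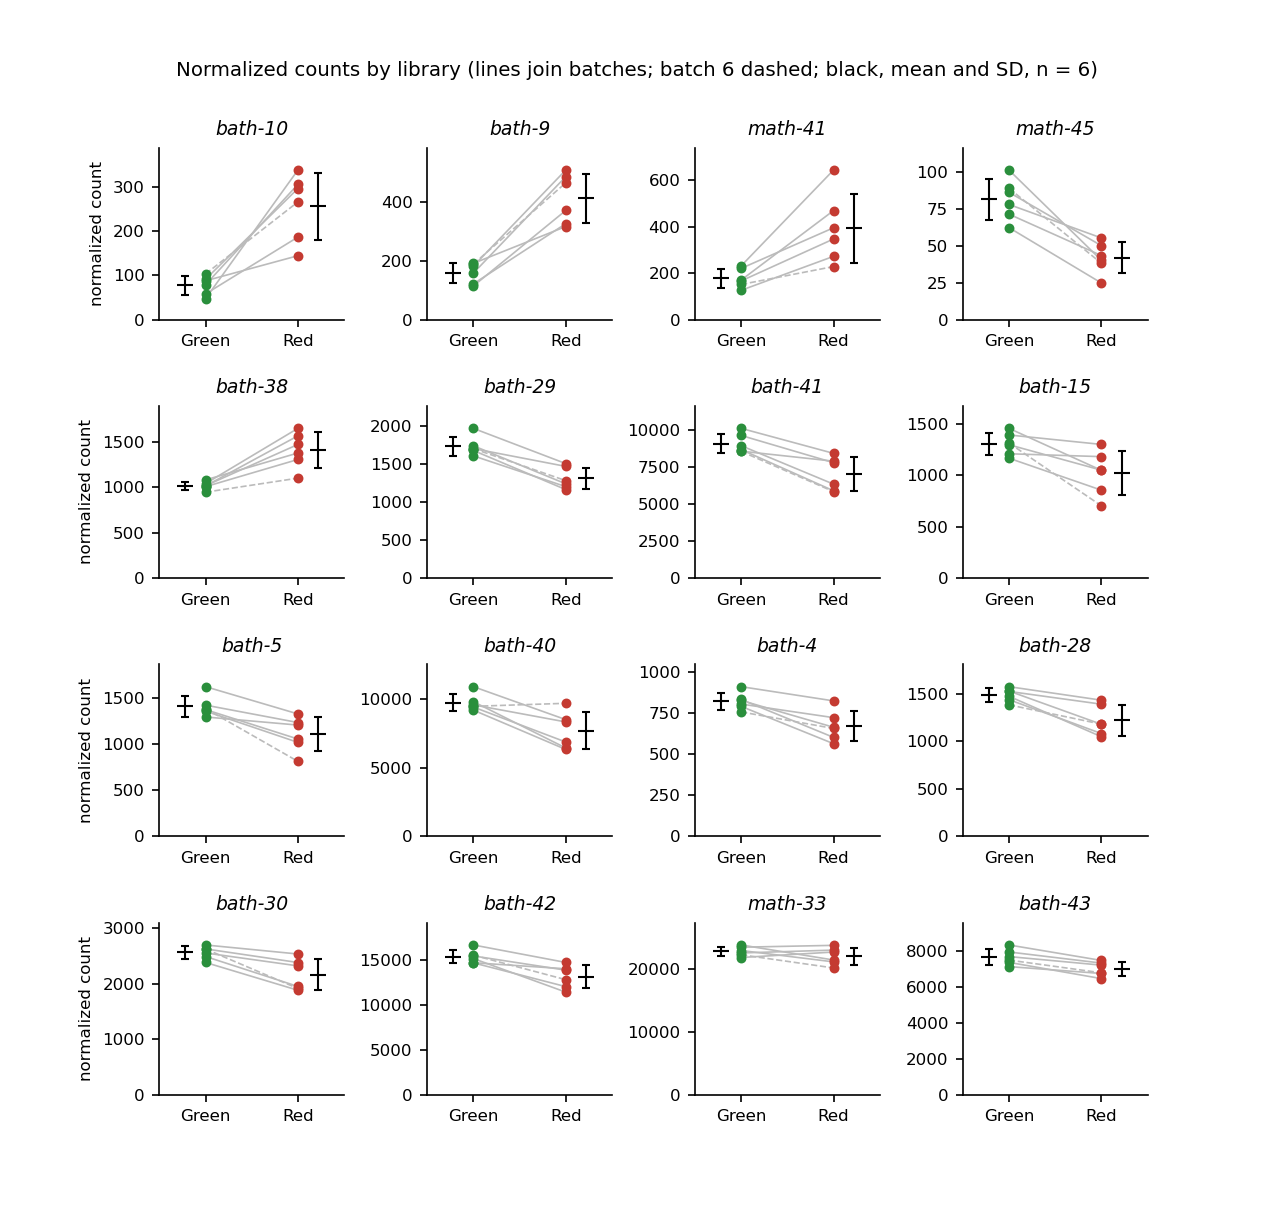
Normalized counts of the 16 members described one by one, per library, with Green at the left and Red at the right of each panel, lines joining the 2 libraries of a batch (batch 6 dashed), and the mean and SD in black (n = 6). Green and Red points are separate for bath-10, bath-9, math-45, bath-38, bath-29 and bath-41, and overlap in the other panels.

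The 37.7-kb cluster held calls in both directions, divided by position. Its first 3 genes, bath-28, bath-30 and bath-29, were higher in Green, and its last 3, bath-10, bath-9 and bath-8, were lower, with bath-27 and bath-23 between them not called. bath-29 (II, 3348560 to 3358983) had 1604 to 1964 normalized counts in Green (median 1699) and 1162 to 1503 in Red (median 1258). All Green libraries lay above all Red libraries, and the log2 fold of 0.41 (standard error 0.086, limma adjusted p = 0.00247) held in every alternative. It overlaps F14D2.8 on the opposite strand by 1311 bases, and F14D2.8 itself had a log2 fold of -0.027.

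bath-28 (II, 3343731 to 3344967) had 1382 to 1573 normalized counts in Green (median 1498) and 1048 to 1431 in Red (median 1179), ranges that overlapped. It had a log2 fold of 0.30 (standard error 0.09, limma adjusted p = 0.0184) that missed the threshold under quantile normalization (0.22, adjusted p = 0.052). It shares 84 bases of the same strand with F14D2.15, which had a log2 fold of 0.48. bath-30 (II, 3345218 to 3346378), its neighbour, had 2380.1 to 2695 normalized counts in Green (median 2587) and 1880.1 to 2533 in Red (median 2134). The 2 groups overlapped, and the log2 fold of 0.25 (standard error 0.087, limma adjusted p = 0.0329) was among the least stable calls, lost in 10 alternatives including edgeR (log2 fold 0.21, adjusted p = 0.0581). bath-27 averaged 977 ± 121 in Green, against 768 ± 205 in Red (SD, n = 6 each), was higher in Green in 6 of 6 batches, and did not pass (log2 fold 0.39, limma adjusted p = 0.0933).

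bath-10 and bath-9, at the far end of the cluster, had the lowest adjusted p-values of all members. bath-10 (II, 3375079 to 3376721, 317 residues) had 47.6 to 103 normalized counts in Green (median 83.4) and 144 to 337 in Red (median 280.4). The highest Green library was below the lowest Red library, and all 6 batches had Green lower, by 0.71 to 2.80 on the log2 scale. Its log2 fold of -1.69 (standard error 0.24, limma adjusted p = 1.45e-04) was the lowest among the bath genes. bath-9 (II, 3377089 to 3378834, 301 residues) had 114 to 191 normalized counts in Green (median 169.7) and 316 to 507 in Red (median 417). Again the groups were separate, with a log2 fold of -1.37 (standard error 0.17, limma adjusted p = 7.16e-05). Both calls held in every alternative, with bath-10 at -1.75 and bath-9 at -1.40 in edgeR. bath-9 shares 260 bases of the same strand with Y49F6C.2, which averaged 5.80 normalized counts. The annotated pseudogene bath-8, the last gene of the cluster, averaged 34.8 ± 9.27 in Green, against 59.0 ± 17.6 in Red (SD, n = 6 each), and its log2 fold of -0.71 (standard error 0.25, limma adjusted p = 0.0346) was lost in 12 alternatives. These include the filter at a mean of 50, under which bath-8 was not fitted. Of the 5 other tested genes inside the cluster 1 was called lower, and 0 were higher in limma, at an unadjusted p under 0.05, in edgeR and in DESeq2, but 2 were higher without Red replicate 6. Over all tested genes 20.1% were lower and 19% higher, or 29.3% higher without Red replicate 6.

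**Figure D4:**
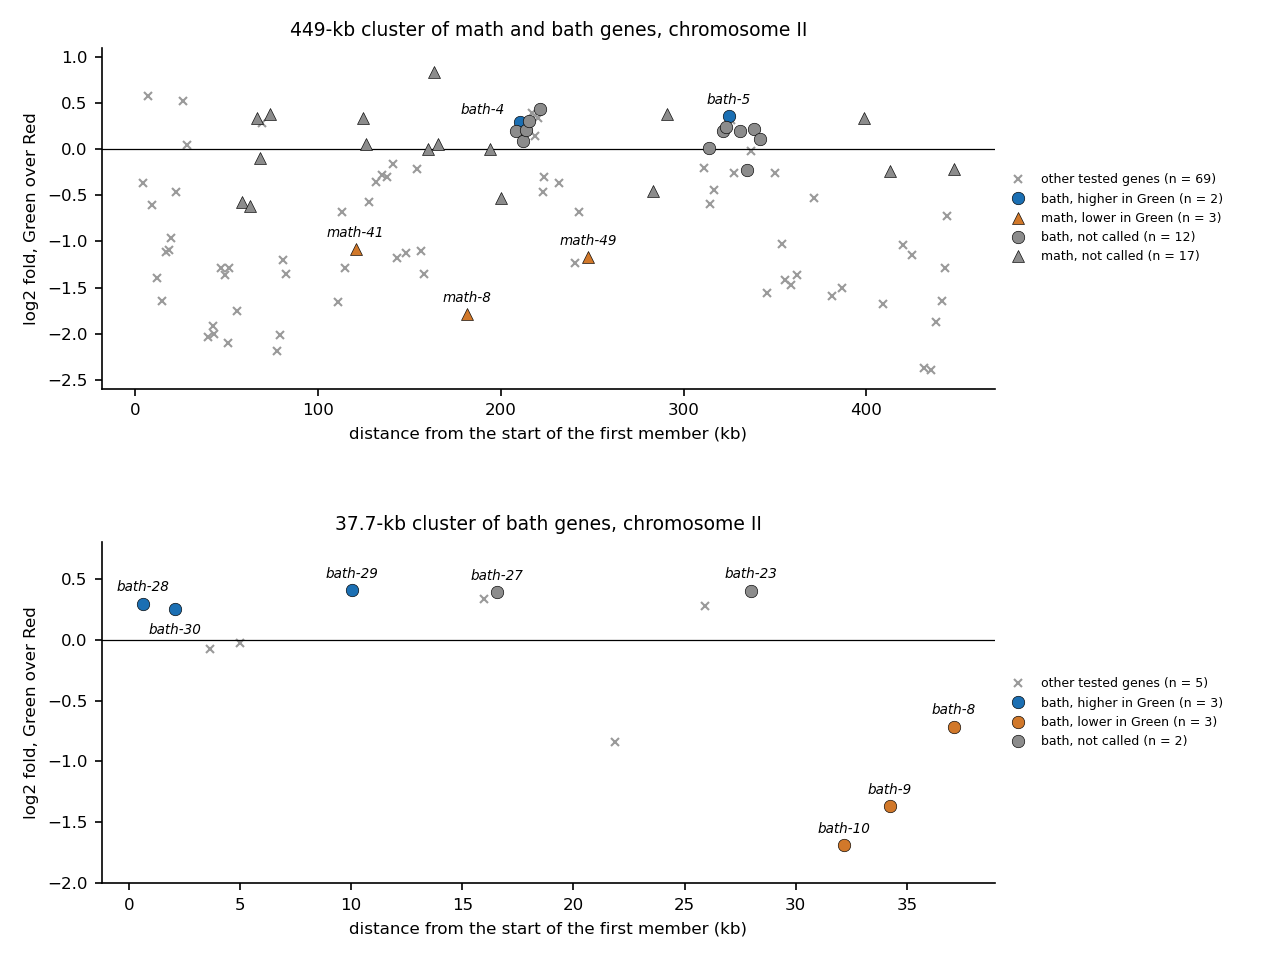
Log2 fold of Green over Red along the 449-kb cluster (upper panel) and the 37.7-kb cluster (lower panel) of chromosome II, against the distance in kb from the start of the first member, with members as circles (bath) and triangles (math) and other tested genes as crosses. In the 37.7-kb cluster bath-28, bath-30 and bath-29 lie above 0 and bath-10, bath-9 and bath-8 below it, and in the 449-kb cluster most crosses lie below 0.

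The 449-kb cluster held few called members beside many lower neighbours. Of its 57 members 34 were tested, and 2 were higher (bath-4 and bath-5) and 3 lower (math-41, math-8 and math-49). Its 14 bath genes, all tested, had 13 folds above 0 and a median log2 fold of 0.21. Red replicate 6 was the lowest of the 12 libraries for 8 of these bath genes. Its 20 tested math genes divided evenly, 10 above and 10 below 0, with a median of -0.042 and 3 lower calls, but Red replicate 6 was the lowest of the 12 libraries for 11 of them. Without that library the 20 had a median of -0.29 and 6 lower calls, and the 14 bath genes a median of 0.16 and 3 higher calls. The folds of bath-6, bath-14 and bath-24 then turned below 0, at -0.0008, -0.017 and -0.036. The other genes inside the same interval, 69 of them tested, had 1 higher and 42 lower calls and a median log2 fold of -1.11, or 3 higher and 48 lower calls and a median of -1.19 without Red replicate 6. Over all tested genes 19% were higher and 20.1% lower, or 29.3% and 25.5% without Red replicate 6. Whether members and neighbours differ was not tested.

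bath-4 (II, 1916713 to 1917962) had 758 to 912 normalized counts in Green (median 817) and 565 to 826 in Red (median 661), and bath-5 (II, 2030753 to 2031952) had 1292 to 1619.9 normalized counts in Green (median 1377) and 812 to 1325 in Red (median 1129). In both genes the ranges overlapped slightly and Green was higher in 6 of 6 batches. bath-4 had a log2 fold of 0.30 (standard error 0.098, limma adjusted p = 0.0278), lost without any 1 of Green replicates 2 and 3 and Red replicates 2 and 4, and bath-5 a log2 fold of 0.36 (standard error 0.11, limma adjusted p = 0.0205), lost without Green replicate 3 (adjusted p = 0.0525). The neighbours bath-1, bath-2, bath-3 and bath-19 were higher in Green in 6 of 6 batches too, with log2 folds of 0.20, 0.31, 0.24 and 0.20, and none passed (limma adjusted p from 0.0588 to 0.172).

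math-41 was the most abundant lower math gene. math-41 (II, 1824629 to 1830228, 704 residues) had 127 to 231 normalized counts in Green (median 169) and 228 to 642 in Red (median 370.4). The ranges met only at the edge, where the highest Green library slightly exceeded Red replicate 6. Its log2 fold of -1.08 (standard error 0.23, limma adjusted p = 0.00251) became -1.22 without Red replicate 6, and it was called in every alternative. math-8 averaged 5.41 ± 2.69 in Green, against 22.4 ± 10.8 in Red (SD, n = 6 each), with a log2 fold at -1.79 (limma adjusted p = 0.00658), and math-49 15.1 ± 4.84 in Green, against 36.1 ± 14.9 in Red, with a log2 fold at -1.17 (adjusted p = 0.00917). Both were at low counts, below a mean of 50, and math-49 was lost under quantile normalization.

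Another cluster of chromosome II, 6 members within 95.9 kb (1510287 to 1606179), held the 2 largest higher folds. math-45 (II, 1510287 to 1517454, 530 residues) had 62.5 to 101 normalized counts in Green (median 82.3) and 24.9 to 55.5 in Red (median 41.9). All Green libraries lay above all Red libraries, and the log2 fold of 0.96 (standard error 0.20, limma adjusted p = 0.00245) held in every alternative. bath-26 (II, 1599461 to 1600761) averaged 39.9 ± 18.2 in Green, against 15.5 ± 5.43 in Red (SD, n = 6 each), and its log2 fold of 1.25 (standard error 0.31, limma adjusted p = 0.00609) passed. Its neighbour bath-46 overlaps it by 28 bases on the opposite strand and averaged 10.2 ± 6.32 in Green, against 17.8 ± 6.20 in Red, with a log2 fold at -0.83 that did not pass (adjusted p = 0.0793, or 0.049 with the batch as a block). The 13 other tested genes of that interval had 11 lower calls and 0 higher ones in limma, with 0 also at an unadjusted p under 0.05, in edgeR and in DESeq2. Over all tested genes 20.1% were lower and 19% higher.

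The last 2 called members are single genes on chromosome I at low levels, and both met the filter of 10 only through their Red mean. math-46 averaged 9.86 ± 4.94 in Green, against 24.6 ± 11.4 in Red (SD, n = 6 each), with a log2 fold at -1.25 (limma adjusted p = 0.0172), and bath-25 averaged 7.77 ± 3.62 in Green, against 17.7 ± 6.90 in Red with a log2 fold at -1.14 (adjusted p = 0.0205). Neither passed under quantile normalization, and bath-25 was also lost without Red replicate 4 or 5.

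The called members differed in the same direction in most batches. They were called on these same libraries, so this agreement was largely built into their selection. Of the 11 higher calls 10 had Green above Red in 6 of 6 batches and 1 (bath-40) in 5, and of the 9 lower calls 6 had Green below Red in 6 of 6 and 3 (bath-25, math-8 and bath-8) in 5. Green replicate 3 was the highest Green library in 8 of the 11 higher calls and Red replicate 3 the highest Red library in 8 of them. Over all 68 tested members, Green was higher in 36, 34, 34, 30, 40 and 51 in batches 1 to 6. Green was higher in 6 of 6 batches for 16 members (23.5%) and lower in 6 of 6 for 7 (10.3%), against 21.1% and 20.2% of all tested genes. In batch 6 Green was higher for 75.0% of members, against 48.6% of all tested genes, and the median difference of the math genes was 0.93 on the log2 scale, where it lay between -0.63 and 0.12 in the other 5 batches.

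**Figure D5:**
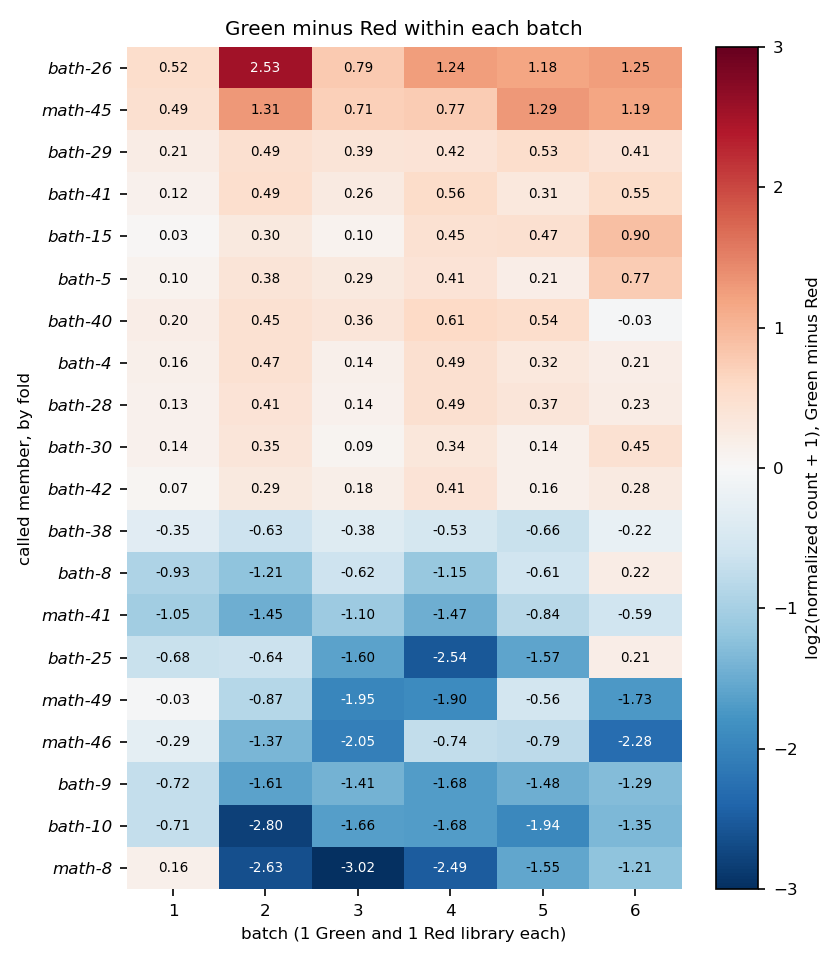
Difference of log2(normalized count + 1), Green minus Red, within each of the 6 batches for the 20 called members, ordered by fold. The 11 higher members are above 0 in every batch except bath-40 in batch 6, and the 9 lower members are below 0 except bath-25 and bath-8 in batch 6 and math-8 in batch 1.

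The math genes were low in Red replicate 6. That library was the lowest of the 12 for 41.2% of the tested members, against 23.4% of all tested genes, and for 12 of 25 math genes. Its median difference from the other Red libraries was -1.0 on the log2 scale for math genes, -0.28 for bath genes and -0.010 for all tested genes. The pseudogene math-27, the most abundant math gene of the 449-kb cluster, had its lowest Red value in this library. It had 818 to 1671 normalized counts in Green (median 1236) and 722 to 2756 in Red (median 2088), and the next lowest Red library after Red replicate 6 had 1846. With all libraries it was not called (log2 fold -0.62, limma adjusted p = 0.0902), and without Red replicate 6 it was lower in Green (-0.89, adjusted p = 9.54e-04). Near-identical copies can share reads, so the values of pseudogenes and close paralogs in this cluster are uncertain.

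Without Red replicate 6 the 20 called members all remained and 6 were added. math-27, math-3, math-22 and bath-31 were added as lower and bath-2 and bath-36 as higher, which made 13 higher and 13 lower calls. The math genes then had 1 higher and 7 lower calls of 25 and a median log2 fold of -0.27, and the bath genes 12 higher and 6 lower of 43 and a median of 0.12. Among all tested genes 29.3% were then higher and 25.5% lower. With the batch as a block the same totals of 13 and 13 were reached, against 23.2% higher and 22.6% lower over all tested genes, through bath-46, math-28, math-22 and bath-31 as lower and bath-2 and bath-36 as higher. math-3 and math-26 lie on the same strand and share 2858 bases, so their counts are not independent of how reads were divided between them.

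Among the 48 tested members that were not called, 33 had folds above and 15 below 0. Over all 14618 tested genes, called or not, 7767 had folds above and 6851 below 0. Red replicate 6 was the lowest of the 12 libraries for 25 of the 48, and without it 9 of the 48 changed sign. Among these bath-6, bath-14, bath-24, bath-35, math-24, math-39 and math-40 went from above to below 0. With all libraries the log2 folds of the 48 ran from -0.83 in bath-46 to 0.83 in math-14, and the 95% interval lay within 2-fold in either direction for 39 of them. At an unadjusted p under 0.05, 5 of them were higher and 2 lower. The remaining 25 members, 24 math genes and bath-37, had means of 0.091 to 8.13 normalized counts and were not tested. Of these, 10 are pseudogenes, 23 lie in the 449-kb cluster, 5 had reads in all 12 libraries, and 20 had a lower mean in Green than in Red. Fitted without a filter on low values, 4 of them were called, math-29, math-7, math-47 and math-48, all lower in Green. Over all genes in that fit, most of them over the filter, 16.5% were lower and 12% higher. The share among only the genes under the filter was not computed. Just under the filter lay math-7, which averaged 4.27 in Green and 11.99 in Red, and just over it bath-25, which averaged 7.77 in Green and 17.7 in Red.

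Summed over a family, the levels had a larger gap between the groups for the bath genes. The 44 bath genes summed to 64605 ± 3176 in Green, against 55365 ± 5012 in Red (SD, n = 6 each), and the 49 math genes to 26680 ± 789 in Green and 26946 ± 2339 in Red, or 27872 ± 636 in Red without replicate 6. Without math-33 the other 48 math genes summed to 3849 ± 545 in Green and 4894 ± 1596 in Red, or 5448 ± 943 in Red without replicate 6. The normalized counts of a whole library summed to 45270502 to 50252727 in Green, with Green replicate 3 the highest. In Red they summed to 37703239 to 51266484, or at most 43760066 without replicate 6. Most of the summed level came from few genes: math-33, bath-42, bath-40, bath-41, bath-43 and bath-44 held 76.4% of that of all members. The difference between the families was not tested.

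The genes listed for the complex that MATH-BTB proteins join were mostly not called. Of 15 genes of the CUL-3 ligase core and its neddylation, 3 were higher in Green, against 19% of all tested genes. All 15 averaged above 1000 normalized counts, where 32.7% of all tested genes were higher and 7.85% lower. The count was 5 without Red replicate 6, where 29.3% of all tested genes were higher. It was also 5 with the batch as a block, which added cul-3 and rfl-1, against 23.2% of all tested genes. The median log2 fold over the 15 was 0.11, and it was -0.059 under quantile normalization. None was lower in limma, and 0 were lower at an unadjusted p under 0.05, in edgeR or in DESeq2, but 1 was under quantile normalization. The higher genes were rbx-2, a RING subunit (0.28, limma adjusted p = 0.0145), csn-5, the deneddylase subunit of the COP9 signalosome (0.22, adjusted p = 0.0317), and ubc-12, the NEDD8-conjugating enzyme (0.35, adjusted p = 0.0334). The call of rbx-2 held in every alternative, and those of csn-5 and ubc-12 were lost in 8 and 7 of them. The other RING subunit gene of the list, rbx-1, was not called (0.023, limma adjusted p = 0.902), and its fold changed sign in 7 alternatives. Which RING subunit acts with CUL-3 was not examined here. cul-3 itself (V, 177417 to 185172) had 15709.6 to 18003 normalized counts in Green (median 16959) and 11614 to 19232 in Red (median 13371). Red replicate 6 was the highest of all 12 libraries, while the other Red libraries lay lower. The log2 fold of 0.28 (standard error 0.11, limma adjusted p = 0.0502) missed the threshold narrowly, passed with the batch as a block (adjusted p = 0.0401) and was 0.37 without Red replicate 6 (adjusted p = 9.79e-04). The 5 other cullins had 0 calls in limma and in edgeR, and 1 (cul-6, log2 fold -0.55) was lower at an unadjusted p under 0.05, in DESeq2 and in limma with the batch as a block (adjusted p = 0.0366). Their median log2 fold of 0.13 was -0.036 under quantile normalization, where cul-1 was called lower. Without Red replicate 6, cul-2 was higher (0.28, limma adjusted p = 0.00637) and cul-6 lower (-0.74, adjusted p = 0.00948).

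Of 22 genes named btb, which carry the BTB domain name without a MATH name, 17 were tested, and their median log2 fold was -0.015. Of these 5 were higher and 6 lower in Green, against 19% and 20.1% of all tested genes. With the batch as a block 6 were higher and 7 lower, with btb-20 and btb-9 added, against 23.2% and 22.6% of all tested genes. The higher ones were led by btb-16 (1.44) and btb-17 (1.25), and the lower ones by btb-10 (-1.23) and btb-11 (-1.19).

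Of the 6 genes listed as known partners, those of the MEL-26 and katanin pathway with trf-1 and daf-16, 5 were tested. The katanin subunits mei-1 and mei-2 were called higher in Green, 2 of the 5, against 19% of all tested genes. All 5 averaged above 1000 normalized counts, where 32.7% of all tested genes were higher. mei-1 (I, 8294874 to 8296940) had 9439.6 to 11021 normalized counts in Green (median 9639) and 6367 to 9959 in Red (median 7962), a log2 fold of 0.30 (standard error 0.10, limma adjusted p = 0.0309) that was lost without any 1 of Green replicates 3 and 6 and Red replicates 2, 4 and 5 (adjusted p from 0.0528 to 0.0755). Red replicate 6 was its highest Red library and overlapped the Green range. mei-2 (I, 6564749 to 6565852), the regulatory subunit of the same microtubule-severing complex, had 9029.7 to 11159 normalized counts in Green (median 9341) and 5619 to 9358 in Red (median 6983), a log2 fold of 0.47 (standard error 0.13, limma adjusted p = 0.0109) that held in every alternative. mel-26 (I, 9132538 to 9135753), the adaptor for MEI-1, had 10288 to 13272 normalized counts in Green (median 11487) and 8056 to 12469.9 in Red (median 9582), and its log2 fold of 0.23 (standard error 0.11, limma adjusted p = 0.101) did not pass, though it did without Red replicate 3 (adjusted p = 0.027) and with median centring (adjusted p = 0.0348). Whether its fold differs from that of mei-1 was not tested. ppfr-1 (I, 9364099 to 9389982), a regulatory subunit of protein phosphatase 4, had 12457 to 14176 normalized counts in Green (median 12697) and 8639.7 to 13018 in Red (median 10889). Its log2 fold of 0.24 (standard error 0.092, limma adjusted p = 0.0512) passed with the batch as a block (adjusted p = 0.0304) and without Red replicate 6 (adjusted p = 0.0464). daf-16 (I, 10750498 to 10776703), the FOXO factor that MATH-33 acts on, had 10142 to 11416 normalized counts in Green (median 10652) and 9076 to 10833 in Red (median 10055), a log2 fold of 0.10 (standard error 0.066, limma adjusted p = 0.231). trf-1, a TRAF gene with a MATH domain, averaged 6.72 ± 3.28 in Green, against 10.5 ± 7.45 in Red and was below the filter.

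Markers of other tissues and stages moved between the groups beside these results. Of 12 oocyte genes 10 were higher in Green, with a median log2 fold of 0.58, and 0 were lower in limma, at an unadjusted p under 0.05, in edgeR or in DESeq2. Over all tested genes 19% were higher and 20.1% lower, shares that also serve for the lists below. All 12 oocyte genes averaged above 1000 normalized counts, where 32.7% of all tested genes were higher. Under quantile normalization 8 of the 12 were higher, with a median of 0.31, against 16.1% of all tested genes. Without Red replicate 6 all 12 were higher, against 29.3%. The summed normalized counts of the 12 ran from 955728 to 1192959 in Green and from 535153 to 848530.2 in Red replicates 1 to 5, while Red replicate 6 had 1090889.8. Of 13 early embryonic genes 9 were tested, and 5 were lower, with a median of -0.68. Their sums ran from 2564 to 3114 in Green and from 3389 to 4240.3 in Red. Of 11 sperm genes 4 were tested, 0 were called in limma, at an unadjusted p under 0.05, in edgeR or in DESeq2, and ssp-9 was at 0 in every library. Their sums ran from 259 to 316 in Green and from 273 to 411 in Red. Of the somatic lists, 2 of 7 intestine genes were higher and 1 lower, 3 of 6 muscle genes higher and 1 lower, 2 of 6 hypodermis genes higher and 2 lower, and 4 of 7 neuron genes lower. With the batch as a block these lists had 3 higher and 3 lower intestine, 4 higher muscle and 3 higher hypodermis calls, and 1 embryonic gene (tbx-9) was higher. Over all tested genes 23.2% were then higher and 22.6% lower. The intestine sums ran from 35915 to 63387 in Green and from 24723 to 47275 in Red, the muscle sums from 26948 to 46843 in Green and from 17521 to 32829 in Red, the hypodermis sums from 4581 to 5321 in Green and from 3355 to 4234 in Red, and the neuron sums from 13437 to 14691 in Green and from 14276 to 18102 in Red. These sums follow the most abundant genes of a list. The median log2 fold was -0.13 for intestine, with 4 of 7 genes below 0, and 0.047 for hypodermis, with 3 of 6 below 0. It was 0.54 for muscle, with 1 of 6 below 0, and -0.39 for neuron, with 6 of 7 below 0. The part of these tissues and stages in the differences of the math and bath genes was not tested.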

How the data were processed

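RNA was prepared with a Qiagen miRNeasy kit and made into libraries with a stranded Roche Kapa mRNA kit, per the labels' protocols. FastQC 0.11.8, STAR, Salmon 0.14.2 and DESeq2, and build WBcel235, are named in the submitters' processing notes. Whether counting used strand is not given in the sources used here, so overlapping genes are uncertain. The table the authors deposited holds a normalized signal, in which a gene's count is divided by a size factor that is the same for all genes of a library. Multiplied by that factor, recovered from the values, 100% of the values in every library were whole reads within 0.001, a weaker test in Red replicate 2, where the factor lies close to 1.

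The test was limma 3.58.1 (eBayes with trend) on log2(normalized count + 1), Green minus Red, over 14618 genes averaging at least 10, with Benjamini-Hochberg adjusted p under 0.05. Adding 1 makes the folds of low genes smaller. Batches in the labels pair Green with Red libraries: deviations from the group means correlated by 0.11 to 0.37 within a batch (mean 0.24) and by a mean of -0.047 between batches (a correlation across genes, not across independent replicates). The alternatives were the batch as a block, added constants of 0.5 and 5, other filters (none, or a mean of 50), quantile normalization, centring on the median gene, edgeR 4.0.16 and DESeq2 1.42.0 on the recovered reads, and leaving out each library or batch 6. edgeR called 5609 genes in all. The members, the gene and marker lists and the alternatives were chosen with earlier results of these data known. Described one by one were called members with a mean of at least 50 by the size of their fold, the 5 members with the highest mean, math-33, bath-42, cul-3 and the known partners. math-27, other called members and members gained in an alternative were named after their values were seen.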

Additional observations from a re-analysis of the deposited data

Results flagged for a closer look

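In 52 groups of 6 libraries, formed by the Green and the Red values of the members and partners described one by one and of the summed families, 5 had a highest or lowest library set apart from the others by more than Dixon's criterion allows, where chance gives about 1 in 20. In 4 of the 5 that library was Green replicate 3, the library with the fewest reads. bath-29 had 1964 normalized counts there, against 1604 to 1736 in the other Green libraries. bath-40 had 10879.6 there, against 9176 to 9789 in the other Green libraries. mei-1 had 11021 there, against 9439.6 to 9786 in the other Green libraries. The 44 bath genes summed to 70675 there, against 62420 to 65392 in the other Green libraries. The 49 math genes summed to 22314 in Red replicate 6, against 26794 to 28348 in the other Red libraries. Leaving out Green replicate 3, bath-29 and bath-40 stayed called, with limma adjusted p of 0.00757 and 0.0404, and mei-1 was lost, with an adjusted p of 0.0741.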

How the results depend on the processing

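None of the 20 called members changed the sign of its fold in any alternative run. bath-40, math-45, math-41, bath-29, bath-10, bath-9 and bath-38 were called in each alternative, while bath-30 and bath-15 were lost in 10. bath-8 was lost in 12, counting the filter at a mean of 50 that left it out. Against 11 higher and 9 lower members, the fit with the batch as a block gave 13 higher and 13 lower and lost none. In the other lists the block added cul-3, rfl-1, ppfr-1 and btb-20 as higher, cul-6 and btb-9 as lower, and tissue markers in both directions. edgeR gave 9 higher and 11 lower, and DESeq2 11 of each. Median centring gave 18 higher, where the share over all tested genes was 28.5% in place of 19%. Quantile normalization gave 5 lower, and a mean of at least 50 gave 4 lower, since it leaves out 6 of the called members. Without batch 6 there were 14 lower. Leaving out 1 library gave 6 to 17 higher and 7 to 13 lower members, and 14 to 20 of the 20 calls were kept. Of the 48 members not called, 10 reversed under quantile normalization, 9 without Red replicate 6 and 7 in edgeR. Those under quantile normalization include math-33 at -0.12 and bath-43 at -0.043, and daf-16 (-0.042) and 5 of the 12 uncalled CUL-3 core genes reversed too. The cause was not tested. Members at low counts rest on few reads, and small folds in either direction depend on the scaling. Reads shared between close paralogs cannot be separated here.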
